A study of Mus musculus with 10 samples.

Results

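The Notch receptor genes Notch1, Notch2, Notch3 and Notch4, the ligand genes Jag1, Jag2 and Dll1, and the Fat cadherin genes Fat1, Fat3 and Fat4 were examined in mouse embryonic stem cells for peaks of the RNA mark N6-methyladenosine (m6A) and of the m6A reader YTHDC1. These are 10 of 21887 protein-coding genes in the RefSeq table of GRCm38.p6, the build that shares its chromosome coordinates with mm10. A peak was counted for a gene when its midpoint lay in the gene span, which gave 43 of the 50124 peaks in 3 deposited lists. The genes were selected on their peak counts, widths and overlaps in these lists, so these values are given as a description and none was tested.

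The study used male embryonic stem cells derived from 129 mice and grown without feeders in serum with LIF. The lists come from m6A precipitates of Mettl3 knockout cells (6764 peaks), m6A precipitates of Mettl3 wild-type cells (12368 peaks), both from polyA RNA, and total RNA pulled down with YTHDC1 from cells that carry a Halo-Ythdc1 knockin (30992 peaks). METTL3 is the catalytic subunit of the enzyme that places m6A on messenger RNA, and YTHDC1 binds m6A in the nucleus. The labels list 2 precipitates and 2 inputs for each Mettl3 genotype, and 1 pull-down (RNA immunoprecipitation, RIP) and 1 input for YTHDC1. They do not say whether the knockout samples are separate clones. A list holds positions only, with no height, no strand and no value per replicate, so no difference could be set against a spread between replicates and the read depth is unknown. The label of 1 knockout precipitate points to the wild-type list, and the labels do not settle which samples went into which list. Mettl3 itself held no peak in any list, which does not check the genotype. Of 14 marker genes of pluripotent cells, 11 held a knockout peak, 11 a wild-type peak and 12 a RIP peak, against 3, 4 and 5 of 17 marker genes of other lineages. The shares over all protein-coding genes were 18.2%, 30.3% and 42.2%. A peak is no measure of expression.

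Notch receptors are single-pass membrane proteins that bind ligands of the Jagged and Delta-like families on neighbouring cells. Binding leads to cleavage of the receptor, and the freed intracellular domain enters the nucleus and acts with the DNA-binding protein RBPJ. In embryonic stem cells this pathway is known for favouring neural commitment rather than for maintaining self-renewal. Fat proteins are giant cadherins known from planar cell polarity and, in flies, as an input to the Hippo growth-control pathway. In mammalian messenger RNA, m6A is known to be frequent in long internal exons and around stop codons.

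Knockout m6A peaks lay in 2 of the 10 genes and wild-type m6A peaks in 7. Knockout peaks were found in Notch1 and Fat1, against 18.2% of all protein-coding genes with a knockout peak (21.3% of those longer than 20 kb). Wild-type peaks were found in Notch1, Notch2, Notch3, Notch4, Jag1, Jag2 and Fat1, against 30.3% of all protein-coding genes (38.7% of those longer than 20 kb). RIP peaks were found in these 7 genes and in Fat3, 8 genes in all, against 42.2% (58.5%). Dll1 and Fat4 held no peak in any list. At least 1 list had a peak in 51.7% of protein-coding genes (66.5%), so absence from all 3 lists was common. The 10 genes held 3 knockout peaks and 27 wild-type peaks, 17 of them in Fat1 alone, and 13 RIP peaks.

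**Figure D1:**
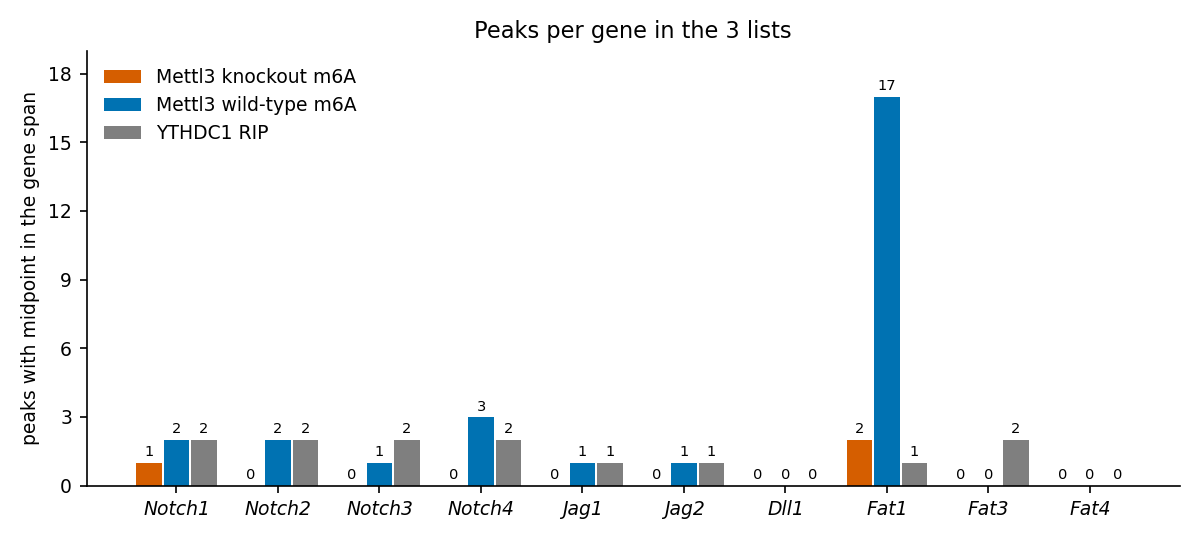
Number of peaks with midpoint in the span of each gene (y axis, count) for the Mettl3 knockout m6A list, the Mettl3 wild-type m6A list and the YTHDC1 RIP list, left to right within each gene. Fat1 stands apart with 2 knockout, 17 wild-type and 1 RIP peak, and Dll1 and Fat4 are at 0 in all lists.

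Peaks reached a start listed in the RefSeq promoter table in 2 genes. All 10 genes matched the RefSeq promoter table of GRCm38.p6, with 11 windows that run from 250 bases before to 50 bases after a start. A knockout peak overlapped 1 of the 11 windows, that of Fat1, against 8.23% of all windows. A wild-type peak overlapped the same window, against 2.46% of all windows, and a RIP peak overlapped 1 window, that of Notch1, against 5.47%. Both windows are shown because peaks of the m6A lists meet at one and YTHDC1 RIP at the other. In the Fat1 window, chr8:44949958-44950257 on the plus strand, capitals mark the 107 bases under the knockout peak. In the Notch1 window, chr2:26503773-26504072 on the minus strand, capitals mark the 83 bases under the RIP peak.
Fat1: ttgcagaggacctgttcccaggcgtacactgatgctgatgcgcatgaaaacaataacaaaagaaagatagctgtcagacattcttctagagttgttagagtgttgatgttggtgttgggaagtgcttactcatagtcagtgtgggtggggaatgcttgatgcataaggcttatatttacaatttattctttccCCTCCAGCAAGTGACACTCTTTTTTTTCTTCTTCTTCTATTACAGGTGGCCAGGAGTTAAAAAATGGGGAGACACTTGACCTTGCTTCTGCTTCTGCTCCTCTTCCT
Notch1: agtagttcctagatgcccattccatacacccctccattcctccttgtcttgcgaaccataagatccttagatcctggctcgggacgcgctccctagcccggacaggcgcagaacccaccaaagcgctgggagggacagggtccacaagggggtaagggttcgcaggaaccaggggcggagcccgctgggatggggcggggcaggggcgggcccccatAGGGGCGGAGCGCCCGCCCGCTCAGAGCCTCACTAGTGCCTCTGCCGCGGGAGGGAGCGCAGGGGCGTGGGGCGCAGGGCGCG
The Fat1 knockout peak ran from 57 bases before to 142 bases after the start, and the wild-type peak from 107 before to 192 after. The listed Fat1 start (chr8:44950208) lies inside the gene span, which begins at chr8:44933100. A wild-type peak lay upstream of it (chr8:44935251-44935700). Whether Fat1 transcripts begin at the listed start in these cells was not tested. The RIP peak of Notch1 ran from 33 bases before to 217 bases after the start. Each window was searched on both strands for 6 words of 5 letters that fit the m6A consensus, namely GGACT or GGACA or GGACC or AGACT or AGACA or AGACC. Other words were not searched, so a window may hold further matches to a wider form of the consensus. In Fat1 the gene strand held GGACC at bases 8 to 12 and AGACA at bases 76 to 80 and 263 to 267, and the opposite strand held none. Of these the AGACA at bases 263 to 267, which begins at base 13 counted from the listed start, lay under the knockout and the wild-type peak. In Notch1 the gene strand held 2 matches and the opposite strand 2, none of them under the RIP peak. At least 1 of the 6 words occurs in 84.8% of all promoter windows on the gene strand and in 84.5% on the opposite strand. The matches are a description of these letters and not sites of methylation.

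The Notch receptor genes carried their wild-type m6A peaks close to the 3′ end. Strand was taken from the promoter table, and the distance from a peak's midpoint to the 3′ end of the gene span was measured. All 8 wild-type peaks of the 4 receptor genes lay within 3 kb of that end, at 367 to 2817 bp. Over all protein-coding genes whose strand the table gives, 49.6% of wild-type peaks lay within 3 kb of the 3′ end, and 39.5% in genes longer than 20 kb. Of the 3 knockout peaks in the 10 genes 2 lay there, those of Notch1 and of the 3′ part of Fat1, against 15.0% of all knockout peaks in protein-coding genes (8.02% in genes longer than 20 kb). The 3 kb limit was set after the positions were seen.

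Notch2, on chromosome 3 with a span of 136830 bp (chr3:98013538-98150367, plus strand), held the widest peak of the 10 genes in the m6A lists. It had no knockout peak and 2 wild-type peaks. The wider measured 3100 bp (chr3:98146001-98149100) and had rank 3 by width among the 12368 wild-type peaks. Its midpoint lay 2817 bp before the 3′ end. The other measured 400 bp (chr3:98149801-98150200), with its midpoint 367 bp before the end. Together they covered 2.56% of the span. Closest in width to the 3100 bp peak, among peaks in other protein-coding genes, were those in Dido1 (3050 bp), Plec (3250 bp), Urgcp (2900 bp) and Fem1a (2850 bp). Of these 4 peaks that of Dido1 overlapped knockout peaks, and those of Plec, Urgcp and Fem1a each overlapped 1 RIP peak. Next came 3 genes at 2800 bp, among them Arhgap32 and Dag1, whose peaks each overlapped a knockout peak and no RIP peak. The 3100 bp peak of Notch2 overlapped neither kind, as did the 2700 bp peak of Arid5b. Over the whole wild-type list 88.4% of peaks overlapped no knockout peak and 13.5% overlapped a RIP peak.

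Of the 4 receptor genes, Notch1 (chr2:26457902-26503822, minus strand) was the one with a knockout peak. The knockout peak was 400 bp wide (chr2:26459551-26459950). It lay wholly inside a wild-type peak of 1450 bp (chr2:26459551-26461000), and the peaks shared the edge nearer the 3′ end of the gene. The knockout midpoint lay 1848 bp and the wild-type midpoint 2373 bp from the 3′ end. A wild-type peak of 600 bp (chr2:26458401-26459000), at 798 bp from the end, met no knockout peak. Its midpoint also lies in the long non-coding RNA gene 0610009E02Rik on the opposite strand, and without strand in the list it cannot be assigned to Notch1 alone.

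Notch3 (chr17:32120820-32166896, minus strand) held no knockout peak and 1 wild-type peak of 1000 bp (chr17:32121851-32122850), 1530 bp from the 3′ end. A long non-coding RNA gene of the opposite strand, Gm38585, covers this position too, so the same limit applies. Notch4 (chr17:34564286-34588543, plus strand), known for its expression in endothelium, held no knockout peak and 3 wild-type peaks. They measured 150, 350 and 600 bp and lay 1368, 1068 and 393 bp from the 3′ end (chr17:34587101-34587250, chr17:34587301-34587650 and chr17:34587851-34588450). Just outside the span, 1382 bp beyond its 3′ end, lay a knockout peak of 150 bp, and 2807 bp beyond it a wild-type peak of 200 bp. Both fall in the span of the neighbouring gene Gpsm3 and were not counted. No other of the 10 genes had a peak within 3 kb outside its span.

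Both Jagged genes repeated this position with 1 wild-type peak each and no knockout peak. Jag1 (chr2:137081451-137116520, minus strand) had a peak of 650 bp (chr2:137082851-137083500) at 1724 bp from the 3′ end. Jag2 (chr12:112907803-112929812, minus strand) had one of 800 bp (chr12:112908651-112909450) at 1247 bp. Dll1 (chr17:15367354-15376932, minus strand), a Delta-like ligand with the shortest span of the 10 genes at 9579 bp, had none. With the receptors, 10 of 10 wild-type peaks outside the Fat genes lay within 3 kb of the 3′ end. Genes in which every wild-type peak lay there made up 47.1% of the 5409 protein-coding genes with a wild-type peak whose strand the table gives, and 35.9% of those longer than 20 kb. Among the 7 member genes with such peaks, Fat1 was the exception.

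**Figure D2:**
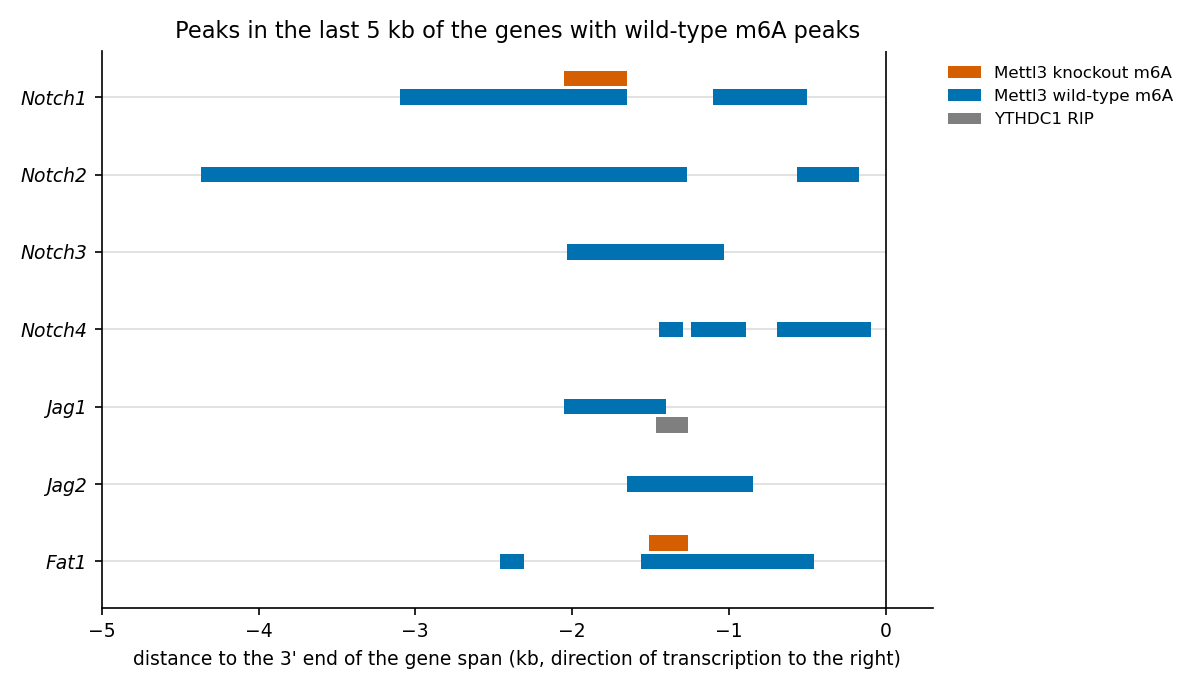
Peaks in the last 5 kb of the 7 genes with wild-type m6A peaks, drawn to scale; the x axis is the distance to the 3′ end of the gene span in kb, and for each gene knockout m6A peaks are drawn above wild-type m6A peaks and YTHDC1 RIP peaks below them. Knockout peaks appear in Notch1 and Fat1, each inside a wild-type peak, and a RIP peak appears in Jag1.

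Fat1 (chr8:44933100-45052257, plus strand) carried the most m6A peaks of the 10 genes. It held 2 knockout peaks that summed to 450 bp (0.378% of the span) and 17 wild-type peaks that summed to 9200 bp (7.72%). Only 1 protein-coding gene had more wild-type peaks. The wild-type peaks were 150 to 1650 bp wide, with a median of 500 bp. In the first 25% of the span lay 5 of them, in the last 25% lay 11, and the stretch between held 1, of 150 bp. Joined wherever the gap was at most 1 kb, they formed 4 groups with 13 peaks in all, and 4 single peaks.

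One group of 4 wild-type peaks (chr8:44950101-44953400) began 107 bases before the start shown above and covered 80.3% of its 3300 bp. It held the widest peak of the gene, of 1650 bp (chr8:44950451-44952100), which met no knockout peak. Another group of 5 peaks (chr8:45022951-45026450) covered 75.7% of 3500 bp, with no knockout peak. The remaining groups of 2 peaks lay towards the 3′ end, at chr8:45043851-45045250 and chr8:45049801-45051800. The single peaks were of 450, 150, 500 and 600 bp, and the first of them (chr8:44935251-44935700) lay upstream of that start and 2375 bp from the 5′ end of the span. Exons were not given in the tables used here, so the groups were not matched to them.

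The knockout peaks of Fat1 lay at the start listed in the promoter table and near the 3′ end. That at the start was 200 bp wide (chr8:44950151-44950350) inside a wild-type peak of 300 bp (chr8:44950101-44950400), and the midpoints of both lay 17150 bp from the 5′ end of the span. That near the 3′ end was 250 bp wide (chr8:45050751-45051000) inside a wild-type peak of 1100 bp (chr8:45050701-45051800). Their midpoints lay 1382 and 1007 bp from the 3′ end. The other 15 wild-type peaks met no knockout peak.

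**Figure D3:**
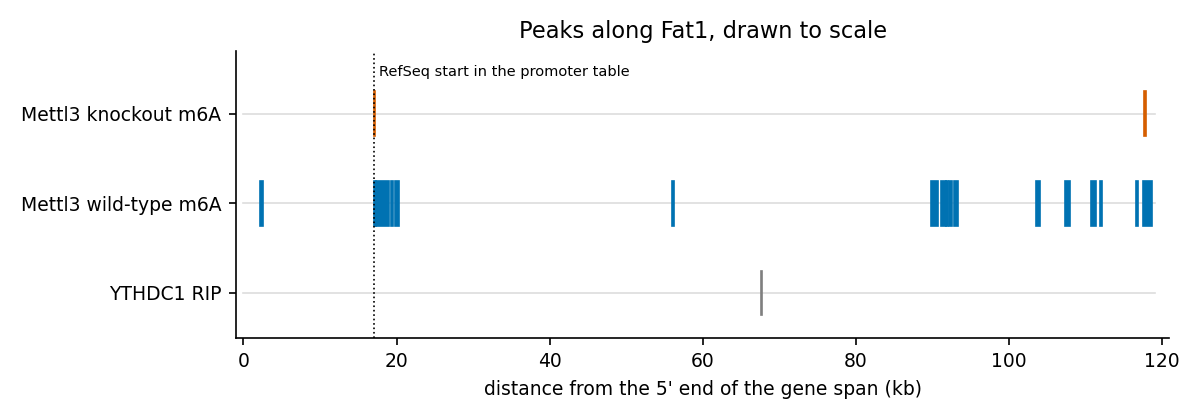
Peaks along Fat1 drawn to scale, with distance from the 5′ end of the gene span in kb on the x axis and 1 row each for knockout m6A, wild-type m6A and YTHDC1 RIP peaks; the dotted line is the RefSeq start of the promoter table. The 2 knockout peaks lie at that start and near the 3′ end, and the RIP peak lies apart from the wild-type peaks. Of the 17 wild-type peaks 5 lie in the first 25% of the span, 11 in the last 25% and 1 between. Within 3 kb of the 3′ end lie 2 of them.

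The other Fat genes held no m6A peak. Fat3 (chr9:15910189-16502681, minus strand), a cadherin studied in retinal neurons and with 592493 bp the longest span of the 10 genes, held no knockout and no wild-type m6A peak. Fat4 (chr3:38884667-39011992, plus strand), the partner of the cadherin DCHS1 in planar polarity, held no peak of any kind. Fat2, Dchs1 and Dchs2, which complete the Fat and Dachsous families, held no peak in either m6A list. Over all protein-coding genes 18.2% held a knockout and 30.3% a wild-type peak.

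By genotype, all 3 knockout peaks in these genes overlapped a wild-type peak, against 21.4% of all knockout peaks. The 3 peaks lie in 2 genes, and the genes were selected on such overlaps, so this is a description only. Of the 27 wild-type peaks 24 overlapped no knockout peak, against 88.4% of all wild-type peaks, so the members' count is near that of the list. No gene of the 10 had a knockout peak without a wild-type peak. Over all protein-coding genes that share was not counted, and it is at most the 18.2% with any knockout peak. Notch2, Notch3, Notch4, Jag1 and Jag2, 5 of the 7 genes with wild-type peaks, had no knockout peak, against 61.9% of all protein-coding genes with a wild-type peak.

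The knockout peaks in these genes measured 200, 250 and 400 bp, and 1 of 3 exceeded the median of the knockout list of 250 bp, against 31.1% of that list. The wild-type peaks measured 150 to 3100 bp with a median of 500 bp, and 18 of 27 exceeded the wild-type list's median of 400 bp, against 46.7% of that list. Without Fat1 the median of the 10 remaining wild-type peaks was 625 bp. Width can depend on depth and enrichment, which are unknown for both lists, and is not taken as an amount of m6A.

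**Figure D4:**
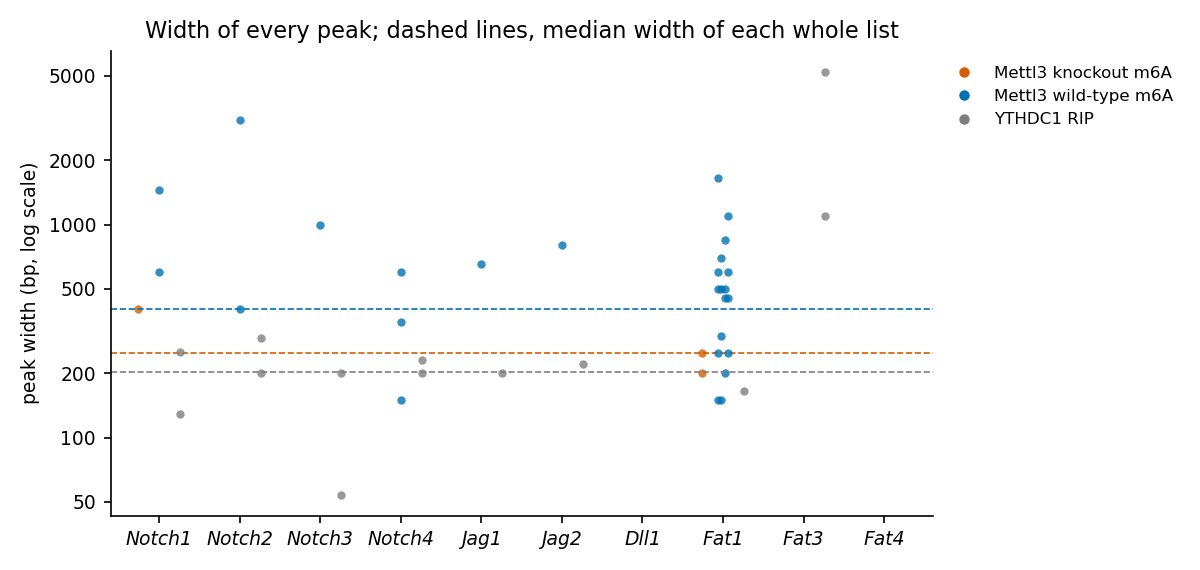
Width of each of the 43 peaks (y axis, bp, log scale) by gene, for knockout m6A, wild-type m6A and YTHDC1 RIP from left to right within a gene; each point is 1 peak and dashed lines are the median widths of the whole lists (250, 400 and 203 bp). The widest m6A peak is that of Notch2 at 3100 bp, and the widest RIP peak that of Fat3 at 5211 bp.

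YTHDC1 RIP peaks in these genes seldom met m6A peaks, as in the whole RIP list. Of 13 RIP peaks none overlapped a knockout m6A peak, against 4.83% of all RIP peaks, and 1 overlapped a wild-type m6A peak, against 5.64%, so both counts are near those of the list. Of the 3 knockout peaks none overlapped a RIP peak, against 22.0% of all knockout peaks, and of the 27 wild-type peaks 1 did, against 13.5% of all wild-type peaks. The overlap was in Jag1, where a RIP peak of 200 bp (chr2:137082714-137082913) shared 63 bp with the wild-type m6A peak. It was no longer counted (0) when at least 50% of the narrower peak had to be shared, or when peaks up to the median width of their list were left out. In the 7 genes with wild-type peaks, the other 10 RIP peaks were 6006 to 70488 bp from the nearest wild-type peak of their gene, with a median of 27107.5 bp.

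Each Notch receptor gene held 2 RIP peaks, at 7549 to 75002 bp from the 3′ end. Those of Notch1 measured 251 bp (chr2:26503605-26503855), across the start shown above, and 129 bp (chr2:26501294-26501422), 2464 bp from the 5′ end. The pair in Notch2 measured 294 bp (chr3:98075219-98075512) and 200 bp (chr3:98132454-98132653), and lay 61827 and 119015 bp from the 5′ end. In Notch3 they measured 54 bp (chr17:32159852-32159905) and 200 bp (chr17:32161942-32162141), 7018 and 4855 bp from the 5′ end. In Notch4 they measured 232 bp (chr17:34569655-34569886) and 200 bp (chr17:34580895-34581094), 5484 and 16708 bp from the 5′ end. None of these 8 peaks lay within 3 kb of the 3′ end, where 18.4% of all RIP peaks in protein-coding genes lay (9.68% in genes longer than 20 kb).

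The ligand genes Jag1 and Jag2 had 1 RIP peak each, that of Jag2 of 222 bp (chr12:112923198-112923419) at 6504 bp from the 5′ end. Fat1 had 1 of 165 bp (chr8:45000693-45000857), 67675 bp from the 5′ end and between groups of wild-type m6A peaks. The RIP peaks of Fat3 differed from the rest in width. They measured 1095 bp (chr9:15929480-15930574) and 5211 bp (chr9:16452714-16457924), whereas the other 11 measured 54 to 294 bp and the whole list had a median of 203 bp. In the whole RIP list 15.5% of peaks were at least 1095 bp wide and 10.4% at least 5211 bp. Repeats were not annotated in the tables used here, so whether the wide peaks of Fat3 coincide with repeats was not tested. Of all 13 RIP peaks 6 exceeded the list's median, against 49.7% of the list.

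The other genes of the Notch pathway were read from lists drawn up by function, with earlier results of these data known. Of 29 genes for processing and trafficking of receptor and ligand, 10 held a knockout peak, 18 a wild-type peak and 14 a RIP peak, against 18.2%, 30.3% and 42.2% of all protein-coding genes. Among those longer than 20 kb the shares were 21.3%, 38.7% and 58.5%. The widest wild-type peaks were in Fbxw7, a ubiquitin ligase subunit that targets the Notch intracellular domain (1100 bp, 1 knockout and 5 wild-type peaks), in the protease gene Furin (1050 bp, 0 and 1) and in Numbl, a relative of the Notch inhibitor Numb (950 bp, 0 and 1). Poglut1, which adds glucose to EGF repeats, had 0 knockout, 3 wild-type and 6 RIP peaks. The adaptor genes Epn1 and Epn2, of ligand endocytosis, had 1 knockout peak each, 1 and 3 wild-type peaks, and 3 RIP peaks each.

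Of 23 genes of the nuclear complex and its corepressors, 14 held a knockout peak, 17 a wild-type peak and 20 a RIP peak. The shares over all protein-coding genes were 18.2%, 30.3% and 42.2% (21.3%, 38.7% and 58.5% of those longer than 20 kb). Rbpj, which encodes the DNA-binding partner of all Notch receptors, had 3 knockout peaks and 1 wild-type peak, and its 12 RIP peaks were the most of the list. The coactivator genes Ep300 (3 knockout and 5 wild-type peaks, the widest 450 and 2000 bp) and Crebbp (0 and 3, the widest wild-type peak 2050 bp) had wide peaks, as did the corepressor gene Spen (5 and 10, the widest 900 and 4400 bp). Kat2b, an acetyltransferase gene, had no m6A peak and 11 RIP peaks, and the corepressor gene Ctbp2 had 2 knockout, 3 wild-type and 7 RIP peaks.

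Of 14 genes listed as Notch targets or related to them, 3 held a knockout peak, 5 a wild-type peak and 5 a RIP peak. These counts are near the 18.2%, 30.3% and 42.2% of all protein-coding genes. Whether each responds to Notch in these cells was not tested. Nrarp, a feedback inhibitor of Notch, had 0 knockout peaks and 1 wild-type peak of 1350 bp, and the repressor gene Bhlhe40 had 1 and 2, the widest 400 and 1250 bp. Hes6, of the Hes family, had 1 knockout peak of 300 bp and 1 wild-type peak of 550 bp. The cell cycle gene Ccnd1 had 1 knockout peak of 300 bp and no wild-type peak. The further ligand and ligand-like genes Dll3, Dll4, Dlk1, Dlk2 and Dner, together with Fat2, Dchs1 and Dchs2, held no m6A peak in either genotype. Most protein-coding genes held none either, with 18.2% holding a knockout and 30.3% a wild-type peak. Dner held 4 RIP peaks, the widest of 6277 bp, and Dchs2 held 1 of 200 bp.

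**Figure D5:**
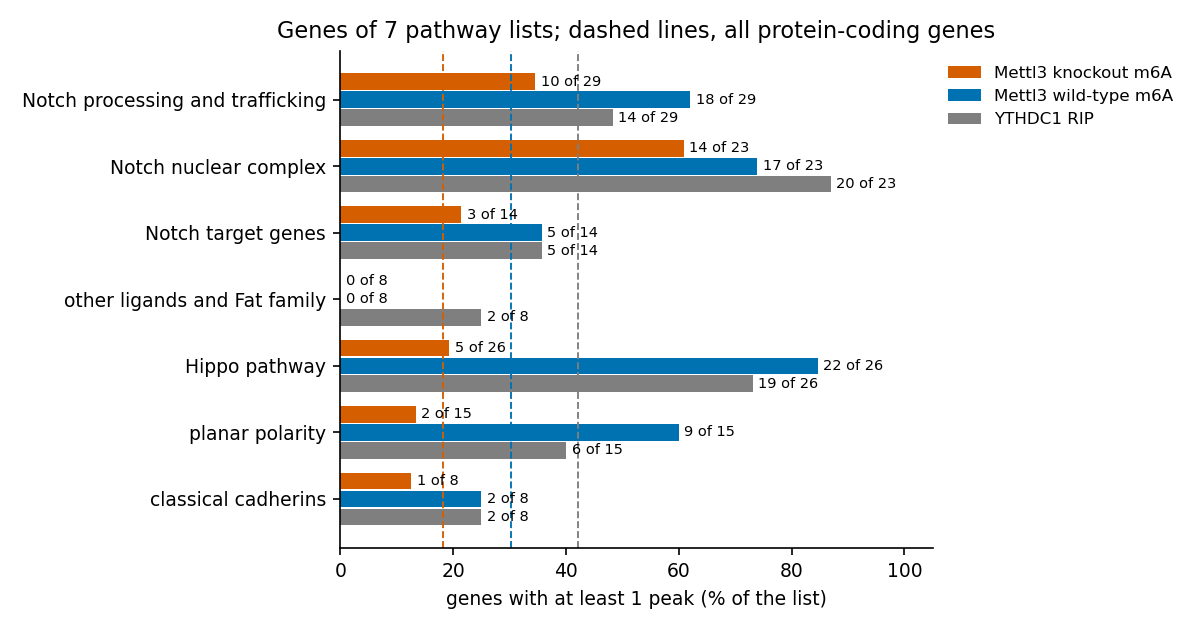
Genes with at least 1 peak as a percentage of each of 7 lists (x axis), for knockout m6A, wild-type m6A and YTHDC1 RIP from top to bottom within a list; dashed lines are the percentages over all protein-coding genes (18.2%, 30.3% and 42.2%). The nuclear complex lies beyond the dashed line of its colour in all lists with 14, 17 and 20 of 23 genes, and the Hippo pathway shows 5, 22 and 19 of 26.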

How the data were processed

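Peaks of m6A and of YTHDC1 pull-down were analysed as the authors deposited them, in 3 lists of chromosome, start and end in bp without score. Coordinates are on mm10 and were made with tools that include STAR 2.7, HISAT2 2.2.0, SAMtools 1.9 and MACS2 2.1.2, per the submitters' processing notes. The sources used here do not state the role of each tool, the peak threshold or any pooling of replicates. Starts were converted to count from 1. All edges of the m6A peaks lie on a 50 bp grid and 0.513% of RIP peaks do, so the lists were made by different steps.

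Peaks were assigned by midpoint to RefSeq gene spans of GRCm38.p6 with Python 3.11.15 and pandas 2.3.3, and counted for every span that held the midpoint. A shared base (1 bp) counted as overlap. Strand came from the RefSeq promoter table. The interval functions were tested on simulated peaks. Each percentage given for comparison covers all peaks or genes of the kind named, and no test was run. The members and gene lists were chosen with earlier results of these data known. Genes named in a pathway list were the 3 with the widest wild-type peak and the 3 with the most RIP peaks, with ties cut in alphabetical order. Percentages of peaks near the 3′ end cover genes whose strand the promoter table gives. Alternatives were the assignment rule, the overlap rule, narrow peaks left out and the distance to the 3′ end.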

Additional observations from a re-analysis of the deposited data

How the results depend on the processing

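Counting any overlap with the span instead of the midpoint moved no count of peaks or genes, and counting whole peaks gave 12 RIP peaks instead of 13. Requiring overlap over at least 50% of the narrower peak, or allowing a gap of 200 bp, left 24 and 23 wild-type peaks without a knockout peak and all 3 knockout peaks on wild-type peaks. The 1 overlap of wild-type m6A and RIP, in Jag1, was lost (0) under the 50% rule and when peaks up to the list median were left out. With only peaks above the list median, 1 knockout and 6 RIP peaks stayed, in 1 and 5 genes, while 18 wild-type peaks stayed in 7 genes. Above 2 times the median, 0 knockout, 6 wild-type and 2 RIP peaks stayed. Within 1 kb of the 3′ end lay 3 wild-type peaks, none of them in Fat1, and within 2 kb 9, of which 8 outside Fat1. At 3 kb and at 5 kb alike the count was 12, of which 10 outside Fat1. The distances were chosen after seeing the data. Leaving out narrow peaks lowered 19 of 27 pathway counts and raised 0. Depth behind the peaks is unknown, so a gene without a peak may still carry m6A. No paired analysis was possible because the lists hold no values per replicate.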

Other observations

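The Hippo pathway, which restrains growth and in flies acts downstream of Fat, held wild-type m6A peaks in most of its genes. Of 26 genes 5 had a knockout peak, 22 a wild-type peak and 19 a RIP peak, against 18.2%, 30.3% and 42.2% of protein-coding genes. Among those longer than 20 kb the shares were 21.3%, 38.7% and 58.5%. The knockout count is near both knockout shares. Of the 22 genes with a wild-type peak 17 had no knockout peak, against 61.9% of all protein-coding genes with a wild-type peak. A knockout peak alone was found in 0 genes. Over all protein-coding genes that share is at most the 18.2% with any knockout peak. The scaffold genes Limd1 (0 knockout and 2 wild-type peaks, the widest 1550 bp), Ajuba (0 and 2, 1350 bp) and Amotl2 (1 and 3, the widest 250 and 1300 bp) had the widest. Tead1, a transcription factor of the pathway, had 0 knockout, 2 wild-type and 11 RIP peaks. Wwc2 had 0, 4 and 6, and the tumour suppressor gene Nf2 had 4, 1 and 5.

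Of 15 planar polarity genes 2 had a knockout peak, 9 a wild-type peak and 6 a RIP peak, against the same 18.2%, 30.3% and 42.2%. Celsr1, a cadherin of the core polarity complex, had 0 knockout and 5 wild-type peaks, the widest of 1300 bp. Vangl1 had 6 and 3, the widest 750 and 1200 bp, and Dvl3 had 2 and 1, the widest 400 and 1100 bp. Fzd3 and Celsr2 had no m6A peak in either genotype and 2 and 1 RIP peaks. Of 8 classical cadherin genes Cdh1, the E-cadherin gene of embryonic stem cells, had 1 knockout, 1 wild-type and 4 RIP peaks, and Cdh3 had 0, 1 and 1. The remaining 6 had no peak in any list. At least 1 list had a peak in 51.7% of all protein-coding genes, so such absence was common.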
